A study of Mus musculus with 23 samples.

Results

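The comparison set cell preparations from juvenile testes of the inter-subspecific hybrid PWDxB6 against the midpoint of its parental strains. Markers of germ cells and of other testis cells were both detected in them. The 3 arrays titled as the F1 of PWD and B6 were compared with the mean of the group means of PWD (3 arrays) and B6 (3 arrays), so that 9 of the 23 arrays of the study entered the difference. PWD is an inbred strain derived from wild Mus musculus musculus, and B6 is a classical inbred strain whose genome is largely Mus musculus domesticus. By convention the strain of the mother is named first, so a PWDxB6 male carries the X of PWD and the Y of B6. All mice were 14.5 days old, and the labels give no treatment. Each array held total RNA of spermatogenic cells isolated from a pool of 4 testes, hybridized to Affymetrix Mouse Gene 1.0 ST arrays. The remaining arrays were the reciprocal hybrid B6xPWD (3) and F1 crosses within a subspecies (11: PWDxPWK, B6xBALB/C and BALB/CxB6), and they shared the estimate of the spread.

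Males of the cross with a PWD mother and a B6 father are a textbook case of hybrid sterility: chromosome pairing fails in meiotic prophase, germ cells are lost, and the trait depends on the histone methyltransferase gene Prdm9 together with a locus on the X. In an F1 animal each autosomal gene is present as an allele of either strain. If each allele keeps the output it has in its own strain, the hybrid level lies at the midpoint, which is called additive. A level outside both parents, or at the level of a single parent, is called non-additive.

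Of 14745 genes that passed a filter on dim signal, 14221 were autosomal, and these are described here. Array medians lay between 6.13 and 6.28 log2 units. Precision is limited by the number of arrays. Hybrid arrays lay between the parents as their labels say. Over 257 autosomal genes that differed between PWD and B6 by at least 1 log2 unit, a position was fitted for each array, with 1 for the PWD mean, 0 for the mid-parent and -1 for the B6 mean. PWDxB6 arrays stood at 0.209, 0.141 and 0.252, and none overlapped with the PWD arrays (0.93 to 1.059) or the B6 arrays (-1.19 to -0.889), whose own values chose the genes. All 3 were on the PWD side of the midpoint, whereas the B6xPWD arrays stood at -0.159, -0.399 and -0.152. Over 9 X-linked genes chosen in the same way, PWDxB6 stood at 1.37 to 1.59 and B6xPWD at -0.213 to 0.0, so that PWDxB6 lay beyond the PWD mean and B6xPWD did not reach the B6 mean. The cause was not tested. The mean position of PWDxB6 was 0.201 ± 0.056 (SD, n = 3), and it was 0.34 with a midpoint taken on the linear scale and 0.087 without B6 replicate 3.

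**Figure D1:**
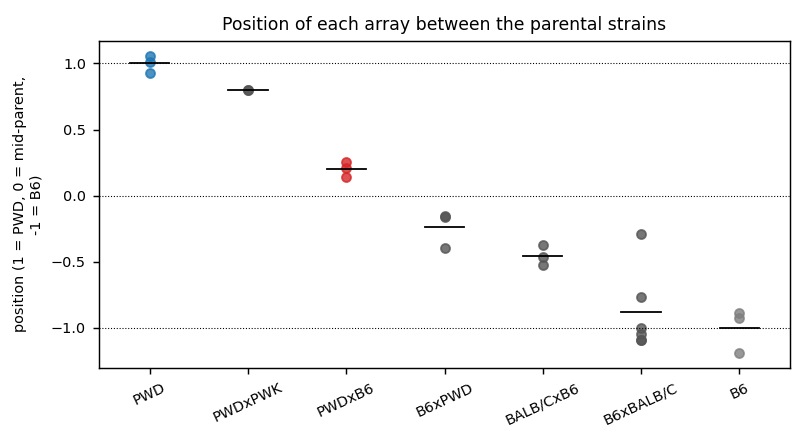
Position of each of the 23 arrays between the parental strains (vertical axis, no unit: 1 is the PWD mean, 0 the mid-parent, -1 the B6 mean), fitted over 257 autosomal genes, by genotype (horizontal axis). Points are arrays and lines are group means; the 3 PWDxB6 arrays lie between 0.141 and 0.252, above the midpoint, and the 3 B6xPWD arrays lie below it.

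The germ cell markers Ddx4, Dazl and Sycp3 were bright in PWDxB6 (10.07, 11.14 and 9.89 log2 units). Markers of other testis cells were also detected in the preparations: Sox9 of Sertoli cells had mean levels of 9.27, 9.19 and 9.47 in PWDxB6, PWD and B6, and Acta2 of peritubular cells 11.8, 11.71 and 11.72. Of the 14 defining markers, only Adgre1 of macrophages was below the dim filter, and none of the other 13 was called against the mid-parent by limma (adjusted p of at least 0.428). In RNA of whole preparations, fewer cells of a type and less RNA per cell cannot be told apart.

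PWDxB6 departed from the mid-parent in 63 of 14221 autosomal genes (0.443%; limma, adjusted p under 0.05), 44 higher (0.309%) and 19 lower (0.134%). At an unadjusted p under 0.05 there were 1620. Of the 63, 29 rose with all 3 hybrid arrays above all 6 parental arrays, and 11 fell with all 3 below them. Without regard to the test, the 3 hybrid arrays lay above the parental arrays in 295 genes (2.07%) and below them in 292 (2.05%). A further 8 called genes, with a parental difference of at least 1, lay nearer a single parent than the midpoint and at most 0.25 beyond it. The other 15 fell in none of these classes. The last gene called was Cabyr, at 0.37 log2 units with an adjusted p of 0.0468, and the next was Nkx6-1, at 0.40 with 0.0506. These counts rested in part on PWDxB6 replicate 2: without it 13 genes were called off the mid-parent, and 6 of the 29 and 2 of the 11 remained.

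**Figure D2:**
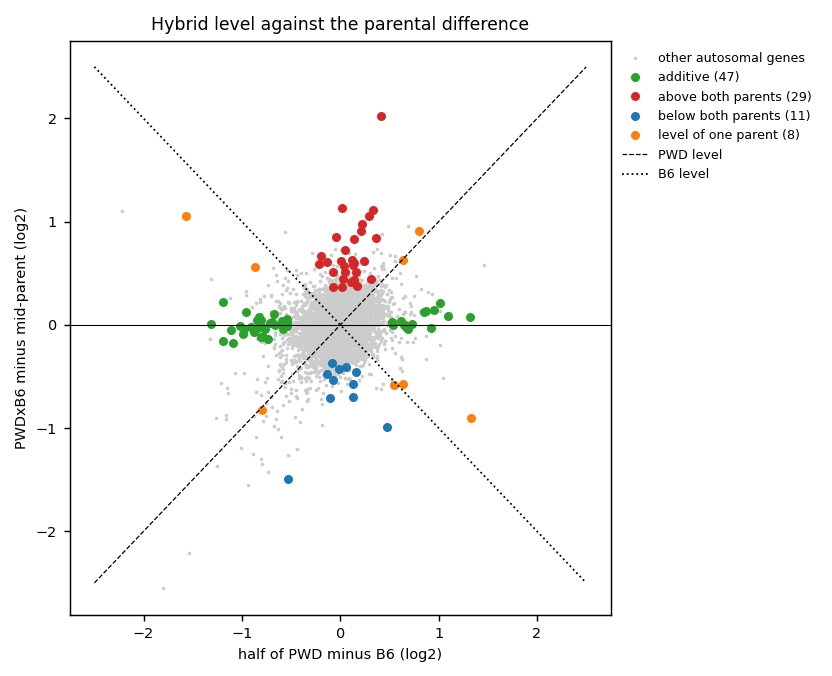
Difference of PWDxB6 from the mid-parent (vertical axis, log2 units) against 0.5 of the PWD minus B6 difference (horizontal axis, log2 units), 1 point per autosomal gene. The horizontal line is the mid-parent, and the dashed and dotted diagonals are the PWD and B6 levels; the 29 genes above and 11 below both parents lie near the centre of the horizontal axis, where the parents differ little, and the 47 additive genes lie along the horizontal line.

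The largest rise above both parents was in Defb15, a beta-defensin of a family of secreted antimicrobial peptides. Its log2 levels were 7.94, 9.24 and 7.86 in PWDxB6, 6.66, 6.78 and 6.78 in PWD, and 6.14, 5.77 and 5.81 in B6. Every hybrid array was thus above every parental array, with replicate 2 well above the other 2. The mean of 8.35 ± 0.78 (SD, n = 3) was 2.02 above the mid-parent (SE 0.227, adjusted p = 1.47e-05), or 4.06-fold. Of the 11 autosomal beta-defensins tested (29 of 32 listed were on the array), Defb15 alone was called, beside 0.443% of all autosomal genes. Its probes may also read near-identical defensin copies, so the member is uncertain.

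Srgap1, a GTPase-activating protein of the Slit and Robo guidance pathway, was at 7.21, 7.48 and 7.42 in PWDxB6, 6.39, 6.29 and 6.11 in PWD and 6.39, 6.27 and 6.00 in B6. The parents had almost the same level (difference 0.04, adjusted p = 0.873), and the hybrid was 2.19-fold above both (1.13, SE 0.123, adjusted p = 9.66e-06). Fgf2, a fibroblast growth factor made in the testis, was at 7.53, 7.75 and 7.15 in the hybrid, 6.65, 6.57 and 6.86 in PWD and 6.07, 5.96 and 6.07 in B6. It rose by 1.11 (SE 0.128, adjusted p = 2.04e-05), although PWD was itself above B6 by 0.66 (adjusted p = 0.00306). Among the smaller rises, Pcdh8, a protocadherin that joins cells, rose by 0.63 (SE 0.135, adjusted p = 0.024), with its lowest hybrid array at 5.88 and its highest parental array at 5.70. Cd59a, which shields cells from complement, rose by 0.67 (SE 0.149, adjusted p = 0.0317), the hybrid at 7.69 ± 0.16 (SD, n = 3) against 6.82 ± 0.19 in PWD and 7.21 ± 0.19 in B6. The call of Cd59a was lost in 7 of 22 alternatives and that of Pcdh8 in 5 of 21.

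Dnajc12, a co-chaperone of the hydroxylases of aromatic amino acids, and Pcbd1, an enzyme that regenerates the tetrahydrobiopterin these hydroxylases use, were both above the parental range. Dnajc12 was at 8.10, 8.95 and 8.38 in PWDxB6, 7.86, 7.63 and 7.67 in PWD and 7.17, 7.20 and 7.48 in B6 (0.97, SE 0.14, adjusted p = 0.000367). Pcbd1 was at 6.34, 7.25 and 6.65, 5.97, 6.31 and 5.87, and 5.93, 5.53 and 5.42 in the same order (0.91, SE 0.182, adjusted p = 0.0144). The lowest hybrid array of Pcbd1 cleared the highest PWD array by a narrow margin, and its difference from PWD alone did not pass (adjusted p = 0.0914). Srgap1, Dnajc12, Pcbd1 and Cdk1 lie on chromosome 10, which holds 4 of the 29 genes and 712 of the genes tested.

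Pmaip1, which encodes the pro-apoptotic protein Noxa, was at 7.67, 7.95 and 7.35 in PWDxB6, 6.78, 6.74 and 6.74 in PWD and 6.75, 6.85 and 6.94 in B6. It was the only one of 22 tested genes of DNA damage and apoptosis that was called (0.86, SE 0.108, adjusted p = 6.87e-05), beside 0.443% of all autosomal genes. The parents differed by -0.10 (adjusted p = 0.639). Cdk1, the kinase that drives entry into cell division, rose by 0.61 (SE 0.131, adjusted p = 0.024), at 8.76 ± 0.27 (SD, n = 3) against 8.02 ± 0.11 in PWD and 8.28 ± 0.17 in B6. Hoxd13, a homeobox gene of limb and genital patterning, was at 5.71, 6.89 and 6.06 in the hybrid and rose by 1.06 (SE 0.177, adjusted p = 0.00227) from a low level, its highest parental array being 5.60. Ica1l rose by 0.84 (adjusted p = 0.0105), 1700007K13Rik by 0.83 (adjusted p = 0.000247) and Nmnat3, an enzyme of NAD synthesis, by 0.72 (adjusted p = 0.00173). The call of Ica1l was lost in 3 of 21 alternatives: without PWDxB6 replicate 1, without replicate 2 and with the F1 crosses as reference. Its difference from PWD alone did not pass in limma (adjusted p = 0.233).

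The remaining 17 genes above both parents rose by 0.37 to 0.62, and were chosen for naming after their values were seen: Resf1, Tafa1, Cdk1, Lonrf2, Wasf3, Tlcd4, Tspan2, Trmt112, Tbx4, Cyp2d10, Zfp128, Dctd, Tfcp2l1, Scoc, Cndp2, Nadk2 and Cabyr. None of the 17 kept its mid-parent call without PWDxB6 replicate 2. The losses ranged from 1 of 22 alternatives for Resf1 and 1 of 21 for Tafa1 to 15 of 22 for Nadk2 and 18 of 21 for Cabyr. Of all 29, 16 were also called against PWD alone, 24 against B6 alone and 11 against each. The background was 2.24% of autosomal genes against PWD and 7.74% against B6. The 29 were chosen on these same arrays, so an excess over that background follows from the choice. PWD and B6 differed from each other in 6 of the 29, beside 18.4% of all autosomal genes.

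**Figure D3:**
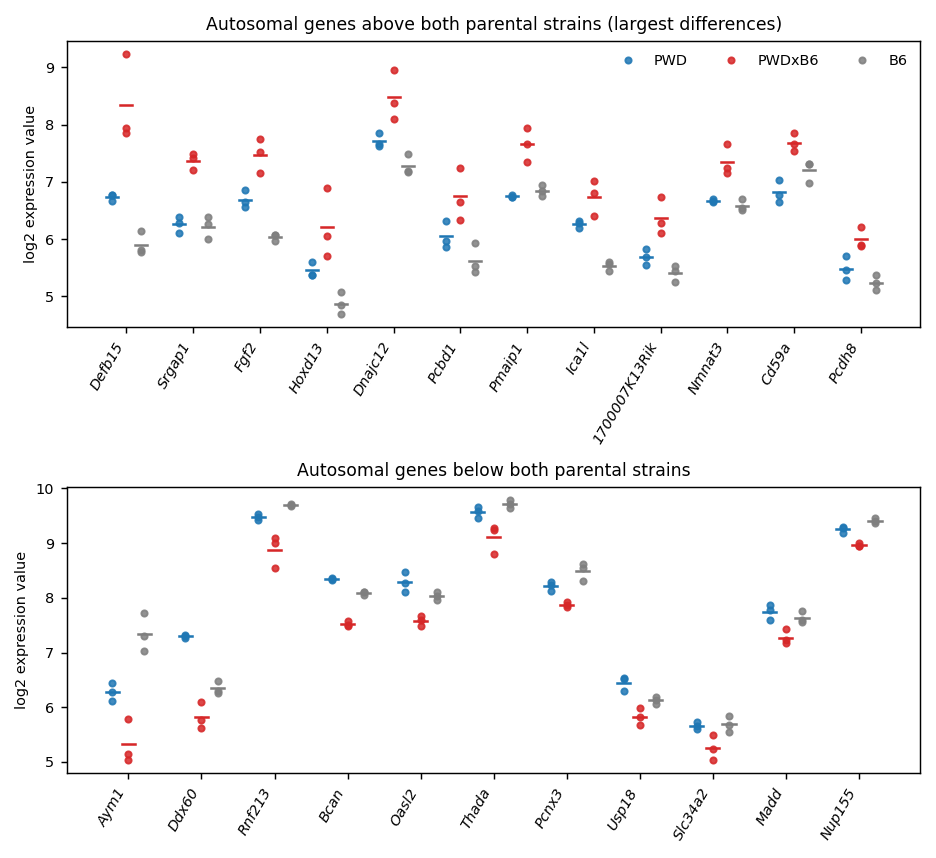
Log2 expression value (vertical axis) of the 12 genes with the largest rises above both parental strains (upper panel) and the 11 genes below both (lower panel), with 3 arrays each of PWD, PWDxB6 and B6. Points are arrays and bars are group means; no PWDxB6 point overlaps with a parental point of the same gene, and the hybrid arrays of Defb15, Hoxd13 and Pcbd1 are spread widely.

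PWDxB6 replicate 2 was the highest hybrid array in 23 of the 29 genes above both parents, against 4 for replicate 1 and 2 for replicate 3. Over all 14221 autosomal genes it was highest in 4994, replicate 1 in 5510 and replicate 3 in 3717. The same array had the lowest hybrid mean of the endothelial markers (6.09, against 6.39 and 6.43), of the macrophage markers (5.74, against 6.00 and 6.23), of the Leydig cell markers (6.89, against 7.09 and 7.15) and of the Sertoli cell markers (9.44, against 9.54 and 9.65). It had the highest mean of pachytene genes (7.28, against 7.03 and 6.94) and of spermatogonial genes (8.27, against 8.08 and 8.09). Their part in the rises was not tested. Without this array Defb15, Srgap1, Fgf2, Dnajc12, Pmaip1 and 1700007K13Rik were still called above both parents. The rest of the 29 were not, among them Hoxd13 (adjusted p = 0.0506), Pcbd1 (0.263), Nmnat3 (0.0598), Ica1l, Cd59a and Pcdh8.

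The largest fall below both parents was in Aym1, a small gene active in the male germ line. It was at 5.78, 5.15 and 5.03 in PWDxB6, 6.28, 6.45 and 6.12 in PWD and 7.02, 7.30 and 7.72 in B6. The hybrid arrays lay under the PWD arrays, which lay under the B6 arrays, and the difference was -1.49 (SE 0.295, adjusted p = 0.0128), 2.81-fold lower than the mid-parent. Against PWD alone it did not pass (adjusted p = 0.172), and the mid-parent call was lost without PWDxB6 replicate 2 or 3. Bcan, which encodes the matrix proteoglycan brevican, was at 7.57, 7.49 and 7.50, 8.35, 8.32 and 8.36, and 8.05, 8.10 and 8.11 in PWDxB6, PWD and B6. Its 3 groups were tight and did not overlap (-0.69, SE 0.158, adjusted p = 0.0398), yet the call was lost on leaving out any 1 of the 9 arrays (adjusted p of up to 0.385). The spread estimate behind that test came from all 23 arrays.

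Nup155, a subunit of the nuclear pore, was at 9.01, 8.95 and 8.94 in the hybrid, 9.18, 9.28 and 9.30 in PWD and 9.45, 9.37 and 9.41 in B6 (-0.37, SE 0.079, adjusted p = 0.024). Thada (-0.54, adjusted p = 0.0248), Pcnx3 (-0.48, adjusted p = 0.0166), the phosphate transporter gene Slc34a2 (-0.43, adjusted p = 0.0453) and Madd (-0.41, adjusted p = 0.0387), an exchange factor for Rab GTPases, also fell below the parental range. The call of Slc34a2 was lost in 13 of 21 alternatives and that of Madd in 9 of 22. The other 4 of the 11, Ddx60, Rnf213, Oasl2 and Usp18, are genes of the interferon response. Of the 11, 6 were called against PWD, 8 against B6 and 3 against each. Over all autosomal genes, 0.999% were called lower than PWD and 3.13% lower than B6. The 11 were chosen on these same arrays, so an excess over these shares follows from the choice.

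The interferon response is the programme by which cells answer foreign or misplaced nucleic acid. Sensors such as Ddx58 (RIG-I) and Ifih1 detect RNA, secreted interferon acts through its receptor on transcription factors, and these bind an interferon-stimulated response element near the start of antiviral effector genes. Of 48 genes on that list 43 were on the array and 36 autosomal ones were tested. None rose and 6 fell in PWDxB6, beside 0.309% and 0.134% of all autosomal genes: Ddx60, Rnf213, Oasl2, Usp18, Ddx58 and Lgals3bp. Of the 36, 32 had a negative difference from the mid-parent, with a median of -0.22, where all autosomal genes had a median of 0.01. At an unadjusted p under 0.05 there were 16 of the 36 (44.4%), against 11.4% of all autosomal genes. The list was chosen with earlier results of these arrays known, so its direction is not independent evidence.

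Among sensors and their kin, Ddx60, a helicase that assists RIG-I, was at 6.09, 5.77 and 5.62 in PWDxB6, 7.26, 7.31 and 7.32 in PWD and 6.30, 6.26 and 6.47 in B6. The hybrid was below both, by -0.99 from the mid-parent (SE 0.153, adjusted p = 0.000802), 1.99-fold lower. Ddx58 was at 6.69, 6.64 and 6.79 in the hybrid, 7.85, 7.97 and 7.70 in PWD and 6.80, 6.78 and 6.66 in B6. Here the hybrid overlapped with B6 (difference -0.04, adjusted p = 0.888) and was far below PWD (-1.13, adjusted p = 3.85e-06). Against the mid-parent Ddx58 fell by 0.58 (SE 0.101, adjusted p = 0.00319).

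Ddx60 is shown with the 250 bases before its start, since it fell furthest and this stretch holds copies of the response element. The sequence is from RefSeq, build GRCm38.p6, plus strand, chr8:61927837-61928086, with the motif GAAANNGAAA in capitals.

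Ddx60: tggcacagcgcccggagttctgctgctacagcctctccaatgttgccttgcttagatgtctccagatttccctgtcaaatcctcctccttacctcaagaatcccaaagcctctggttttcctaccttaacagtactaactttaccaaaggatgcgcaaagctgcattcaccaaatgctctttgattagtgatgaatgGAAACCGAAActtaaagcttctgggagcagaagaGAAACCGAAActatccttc

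The pair of copies begin 53 and 19 bases before the start. For Ddx58 a site of 30 bases is shown, which holds the motif in the opposite orientation and lies at the start of the transcript, on the minus strand at chr4:40239804-40239833 of the same build.

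Ddx58: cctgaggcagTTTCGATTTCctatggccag

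The motif GAAANNGAAA, searched on both strands with overlaps counted, was found in 1131 of 32851 windows of 300 bases (250 before to 50 after a start), or 3.44%. Of 33 windows of tested interferon genes, from 29 of the 36 genes, 10 held it (30.3%). Among the 6 genes that fell, 5 had an entry, and it was found for Ddx60 and Ddx58 but not for Oasl2, Lgals3bp or Rnf213. A match in these letters is a description and not a bound site.

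Among effectors and regulators, Oasl2, of the oligoadenylate synthetase family, was at 7.59, 7.49 and 7.67 in PWDxB6, 8.27, 8.48 and 8.10 in PWD and 8.03, 7.96 and 8.10 in B6. It was below both parents and called against each (adjusted p = 0.000117 and 0.00666), with a difference of -0.57 from the mid-parent (SE 0.084, adjusted p = 0.000465). Rnf213, a giant ubiquitin ligase induced by interferon, had its hybrid arrays between 8.54 and 9.10, with PWD between 9.42 and 9.54 and B6 between 9.68 and 9.71 (-0.71, SE 0.137, adjusted p = 0.011). Usp18, which removes Isg15 from proteins and dampens the interferon receptor, was at 5.98, 5.68 and 5.82, with PWD between 6.30 and 6.53 and B6 between 6.05 and 6.19 (-0.46, SE 0.098, adjusted p = 0.024). The hybrid arrays of both lay below every parental array.

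Lgals3bp, a secreted galectin-binding protein, had the widest parental gap of the list. Its arrays were at 9.10, 9.08 and 9.15 in PWD, 6.32, 6.58 and 6.48 in B6 and 6.95, 6.94 and 6.78 in the hybrid, which lay just above B6 without overlap (-0.90 from the mid-parent, SE 0.11, adjusted p = 4.15e-05). The calls of Ddx60, Oasl2 and Lgals3bp were kept in every alternative run, with an adjusted p of at most 0.0162, 0.0131 and 0.00106. Those of Rnf213, Usp18 and Ddx58 were lost without PWDxB6 replicate 2 (Ddx58, adjusted p = 0.0552). The call of Usp18 was lost in 7 of 21 alternatives, 6 of them with 1 array left out (adjusted p of up to 0.291). Both Usp18 and Rnf213 also lost their call with the F1 crosses as reference. The Oas genes are a family of near-identical copies, so single members are uncertain.

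PWD was above B6 in 23 of the 36 genes and below it in 1, Ifi27, where 10.4% and 8.07% of autosomal genes were called in these directions. The hybrid mean lay nearer B6 than PWD in 22 of the 23, and below B6 in 8. It was called lower than PWD in 21 of the 36 (background 0.999%), lower than B6 in 2 (background 3.13%) and higher than B6 in 6 (background 4.61%). Over the 23 genes the median was 0.87 for PWD minus B6, -0.67 for the hybrid minus PWD and 0.10 for the hybrid minus B6. Xaf1, a pro-apoptotic interferon target, shows the shape: 6.22, 6.23 and 5.97 in the hybrid, 7.10, 7.40 and 7.10 in PWD, and 6.00, 6.05 and 6.41 in B6. The hybrid overlapped with B6 and not with PWD (adjusted p = 0.971 and 0.000742), yet the mid-parent difference of -0.54 did not pass (adjusted p = 0.126). Mx2, Herc6 and Samd9l, antiviral effectors, were at -0.52, -0.42 and -0.57 from the mid-parent, and none passed either (adjusted p = 0.233, 0.163 and 0.134).

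As a mean over the 36 genes, the PWDxB6 arrays stood at 6.65, 6.59 and 6.58, the PWD arrays at 7.26, 7.26 and 7.12 and the B6 arrays at 6.54, 6.52 and 6.53. All hybrid arrays were between the parents and close to B6, with no overlap with either. The arrays of other genotypes fell on the same sides: the F1 of PWD and PWK, both of the musculus subspecies, was at 7.30 and 7.33, BALB/CxB6 at 6.55 to 6.57 and B6xBALB/C at 6.46 to 6.59. B6xPWD was at 6.58 to 6.66 and had negative mid-parent differences in 32 of the 36 (median -0.25), from the same parental arrays. Macrophage markers, whose cells respond strongly to interferon, had array means of 5.74 to 6.23 in PWDxB6, 5.85 to 6.00 in PWD and 6.03 to 6.30 in B6. The PWD arrays were thus not the highest for that list, and its part in the interferon levels was not tested.

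**Figure D4:**
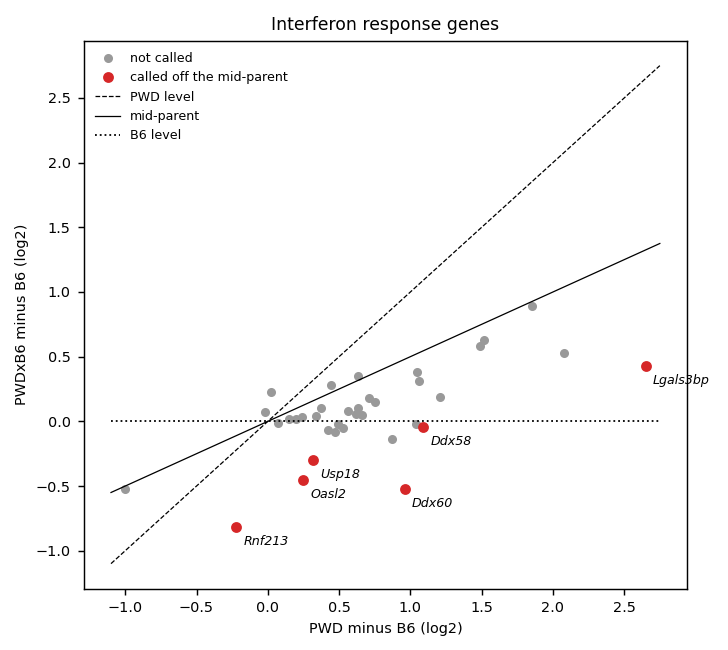
PWDxB6 minus B6 (vertical axis, log2 units) against PWD minus B6 (horizontal axis, log2 units) for the 36 tested autosomal genes of the interferon response, 1 point per gene, called genes in red. Dashed, solid and dotted lines are the PWD, mid-parent and B6 levels; most points lie near the B6 level, and Ddx60, Oasl2, Usp18 and Rnf213 lie below it.

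Of 18 tested genes upstream of these, for sensors' adaptors, receptors, kinases and transcription factors, 0 were called by limma (3, or 16.7%, at an unadjusted p under 0.05), and the median difference was 0.03. Ifngr1, a receptor subunit for interferon gamma, was at 0.36 from the mid-parent (adjusted p = 0.192), and Irf3, which switches on interferon, at -0.22 (adjusted p = 0.328). PWD was above B6 in 2 of these genes and below it in 5, beside 10.4% and 8.07% of all autosomal genes. Outside the list, 3 further interferon-inducible genes fell, named after their values were seen: Rtp4 (-0.57, adjusted p = 0.0321), Uba7 (-0.48, adjusted p = 0.0179), the activating enzyme for Isg15, and Ifitm3 (-0.61, adjusted p = 0.0453), which blocks virus entry and has near-identical relatives. The call of Ifitm3 was lost in 11 of 22 alternatives, that of Rtp4 in 8 of 21 and that of Uba7 without PWDxB6 replicate 2 or 3.

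Antigen processing genes on chromosome 17 were singled out after their values were seen, and their difference from the rest of the list was not tested. Tap1 and Tap2 encode the peptide transporter that loads class I molecules, and Psmb8 and Psmb9 are subunits of the immunoproteasome; the 4 genes are immediate neighbours in the gene table. Tap1 was at 7.44, 7.30 and 7.50 in PWDxB6, 8.48, 8.28 and 8.35 in PWD and 6.53, 6.55 and 6.48 in B6. The hybrid was clear of both parents, and its difference from the mid-parent was -0.03 (95% interval -0.20 to 0.13). Tap2 was at 7.70, 7.56 and 7.63 in the hybrid, with PWD at 8.43 ± 0.15 and B6 at 6.53 ± 0.16 (SD, n = 3), a difference of 0.15 (95% interval -0.07 to 0.36). Psmb8 (5.72 in the hybrid, 6.61 in PWD, 5.09 in B6) and Psmb9 (7.37, 8.28 and 6.79) were likewise called against each parent, and their differences of -0.13 and -0.17 from the mid-parent did not pass (adjusted p = 0.716 and 0.571). Psmb8, Psmb9 and Tap1 are among the 6 list members called above B6, the others being Irf7, Trim25 and Lgals3bp.

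Additive genes could be recognised only where the parents were far apart. PWD and B6 differed in 2623 autosomal genes (18.4%), 1475 higher in PWD and 1148 higher in B6, and by at least 1 log2 unit in 257 (1.81%), 81 higher in PWD and 176 higher in B6. A gene was called additive if the 95% interval of its mid-parent difference fell within 0.5 of the distance from the midpoint to a parent. Of the 257, 47 met this, 15 higher in PWD and 32 higher in B6. Of the 47, 46 were called against both parents, which the rule favours, since it keeps the hybrid mean away from both. Another 12 of the 257 were off the mid-parent, and 198 were neither. The hybrid mean was within the middle range, up to 0.5 of that distance on either side, in 178 of the 257 (69.3%). It lay nearer PWD in 33 (12.8%), beyond PWD in 25 (9.73%), nearer B6 in 18 (7.0%) and beyond B6 in 3 (1.17%).

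Among additive genes with a higher PWD level the widest parental gap was in Kcnc2, a voltage-gated potassium channel. It was at 7.09, 7.05 and 7.09 in PWDxB6, 8.33, 8.31 and 8.31 in PWD and 5.63, 5.82 and 5.61 in B6. The 3 groups formed separate steps, with the hybrid 0.07 from the midpoint (95% interval -0.19 to 0.34) of a parental gap of 2.63. Scn3b, a sodium channel subunit, was at 6.23, 5.92 and 6.39 in the hybrid, 7.31, 6.89 and 6.73 in PWD and 4.75, 5.26 and 4.86 in B6, 0.21 from the midpoint (95% interval -0.06 to 0.48). Gask1a, with a parental gap of 2.19, the ephrin gene Efnb2, with 1.71, the kinase gene Mapk4, with 1.74, and Cemip, which acts in hyaluronan breakdown, with 1.46, had mid-parent differences of 0.08, 0.12, 0.13 and 0.01. The hybrid arrays of Cemip were spread from 6.15 to 7.13, and its difference from PWD did not pass (adjusted p = 0.0516).

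Among those with a higher B6 level the widest gap was in Bbox1, which makes carnitine for fatty acid use. It was at 6.23, 6.54 and 6.22 in PWDxB6, 4.94, 4.95 and 5.15 in PWD and 7.72, 7.29 and 7.89 in B6. The hybrid stood 0.01 from the midpoint (95% interval -0.38 to 0.39) of a gap of -2.62. Serpina5, a protease inhibitor whose loss makes male mice infertile, was at 9.23, 9.35 and 9.49, 8.57, 8.34 and 7.97, and 10.48, 10.42 and 10.61 in PWDxB6, PWD and B6, again without overlap (-0.04, 95% interval -0.34 to 0.25). Anxa3, an annexin, was at 6.65, 6.71 and 6.54 in the hybrid, 5.47, 5.86 and 5.56 in PWD and 7.70, 7.56 and 7.72 in B6 (-0.01, 95% interval -0.28 to 0.26). The lipid transporter family member Abca6, the carrier gene Slc16a4, Tm6sf1, 2610206C17Rik and 4930486L24Rik, with parental gaps of -2.39, -2.19, -1.97, -2.39 and -1.96, had mid-parent differences of -0.15, -0.17, -0.09, 0.22 and -0.04. The parental gaps of all 16 named additive genes kept their direction and their call in the 19 or 20 alternatives run for that gap. These genes were chosen for the largest gaps, and the alternatives followed the gap alone, so the result does not test whether they stayed additive. Of all 47, 23, 20 and 25 were still additive without PWDxB6 replicate 1, 2 and 3. Without 1 parental array, 34 to 36 were.

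**Figure D5:**
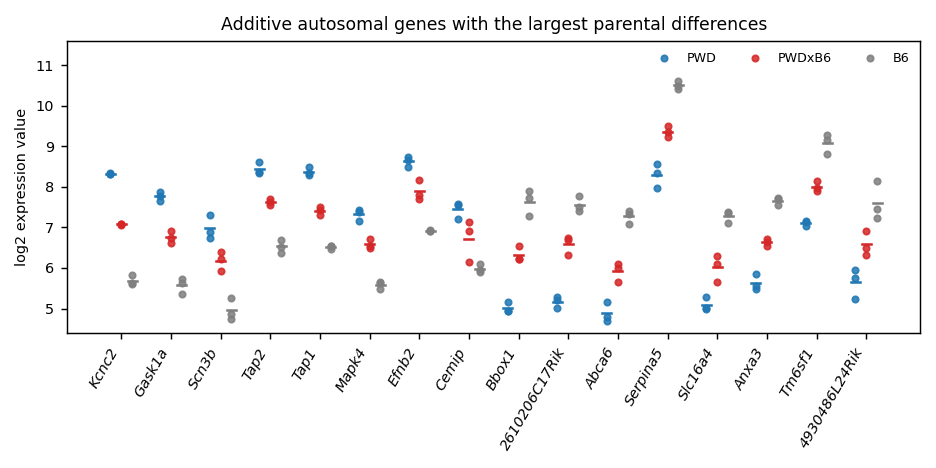
Log2 expression value (vertical axis) of the 8 additive genes with the largest parental difference in each direction (horizontal axis), with 3 arrays each of PWD, PWDxB6 and B6. Points are arrays and bars are group means; the PWDxB6 bar lies between the parental bars in all 16 genes, and the arrays of Cemip come closest to both parents.

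Whether a gene was additive depended on the scale of the midpoint. The log2 midpoint is a geometric mean and lies below the midpoint of the signals themselves. With the linear midpoint 30 genes were additive, 10 of them shared with the 47, while 44 of the 63 genes off the mid-parent, 21 of the 29 above and 10 of the 11 below both parents were called on either scale. On the log2 scale the median position of the hybrid was 0.13 for genes higher in PWD and 0.12 for genes higher in B6, towards PWD in both. On the linear scale it was -0.13 and 0.37, so that the hybrid was nearer the lower parent in both sets.

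Trim12a, of a family of antiviral Trim genes with near-identical copies, had the widest gap of the genes called off the mid-parent. It was at 7.17, 7.63 and 7.58 in PWDxB6, 4.31, 3.87 and 4.23 in PWD and 8.62, 8.44 and 8.65 in B6. The hybrid lay on the B6 side of the log2 midpoint by 1.11 (SE 0.158, adjusted p = 0.000367) but was -0.18 from the linear one (adjusted p = 0.749). Vnn1, a pantetheinase higher in PWD, behaved alike, at 0.58 from the log2 midpoint (SE 0.123, adjusted p = 0.024) and -0.07 from the linear one (adjusted p = 0.894).

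In 8 genes called off the mid-parent, the hybrid lay nearer a single parent than the midpoint, within set limits. The parents differed by at least 1 log2 unit, and the hybrid was at most 0.25 beyond that parent. Cyp1b1, a cytochrome P450 that oxidises steroids, was at 5.30, 5.21 and 5.40 in PWDxB6, 5.29, 5.12 and 5.60 in PWD and 6.94, 6.91 and 6.93 in B6. The hybrid overlapped with PWD and was below B6 throughout (-0.83 from the mid-parent, SE 0.125, adjusted p = 0.000618). Map3k7cl, at 7.52 ± 0.55 (SD, n = 3) against 7.41 ± 0.19 in PWD and 5.81 ± 0.22 in B6, and the histone gene H2bc14, at 9.64 ± 0.17 against 9.64 ± 0.12 and 8.37 ± 0.23, were also near the PWD level. The call of H2bc14 was lost in 11 of 22 alternatives, 8 of them with 1 array left out, and its difference of 0.63 from the mid-parent was 0.31 against the F1 crosses within a subspecies. Histone genes have many near-identical copies, so that member is uncertain. Nearer B6 were 2610524H06Rik (8.34 in the hybrid, 5.71 in PWD and 8.84 in B6), Phgdh, the entry enzyme of serine synthesis (8.19, 6.76 and 8.50), and the interferon-inducible Ddx58, Rtp4 and Lgals3bp, the last of which was called above B6 (0.43, adjusted p = 0.0383). Without PWDxB6 replicate 2 there were 3 such genes. The mid-parent calls of Map3k7cl, H2bc14, 2610524H06Rik and Phgdh were lost with the linear midpoint. Those of Cyp1b1, Ddx58, Rtp4 and Lgals3bp were kept on that scale.

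The widest fall among the other 15 called genes was in 1700006A11Rik, at 4.41, 5.27 and 4.23 in PWDxB6, 5.32, 6.02 and 4.82 in PWD and 9.02, 8.71 and 9.25 in B6. Hybrid and PWD arrays overlapped, and both were far below B6 (-2.55 from the mid-parent, SE 0.577, adjusted p = 0.0387), a call lost in 10 of 22 alternatives. Stra8, which germ cells need to enter meiosis in response to retinoic acid, was at 8.97, 9.18 and 8.96 in PWDxB6, 8.81, 9.02 and 8.77 in PWD and 7.76, 7.88 and 8.39 in B6. It rose by 0.60 (SE 0.14, adjusted p = 0.0453), overlapping with PWD, and the call was lost in 13 of 22 alternatives. It was the 1 called gene of 21 tested genes of spermatogonia, beside 0.443% of all autosomal genes.

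No tested gene on the lists of meiotic prophase passed the test. Of 20 tested genes of synapsis and cohesin, 22 of recombination, 10 of sex body silencing, 27 of pachytene spermatocytes and 22 of the piRNA pathway, 0 passed limma. At an unadjusted p under 0.05 there were 4 (20.0%), 5 (22.7%), 4 (40.0%), 5 (18.5%) and 2 (9.09%), against 11.4% of all autosomal genes. The median differences were 0.09, -0.06, -0.14, -0.07 and -0.06, and 2 of the 10 sex body genes had a positive difference. Prdm9 was at 8.15, 7.94 and 8.04 in the hybrid, 8.22, 8.46 and 8.62 in PWD and 7.80, 7.29 and 7.90 in B6. PWD was above B6 by 0.77 (adjusted p = 0.00158), and the hybrid was at the midpoint with a 95% interval of -0.29 to 0.28, so a departure larger than that was not seen.

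Pachytene genes differed among the strains themselves. Their mean over 27 genes was 7.03, 7.28 and 6.94 in PWDxB6, 6.92, 7.04 and 6.91 in PWD and 7.56, 7.49 and 7.86 in B6. The hybrid arrays overlapped with PWD and lay below B6, and 6 of the 27 were called lower than B6 (background 3.13%). Piwil1, a protein that binds pachytene piRNA, was at 6.76, 6.54 and 6.40 in the hybrid, 7.15, 7.63 and 6.99 in PWD and 8.33, 8.63 and 9.21 in B6. The arrays did not overlap, but the spread over all genotypes was wide and the difference of -1.42 did not pass (SE 0.459, adjusted p = 0.19). Ldhc, the germ cell lactate dehydrogenase (-1.25, adjusted p = 0.366), and Acr, the acrosomal protease (-0.94, adjusted p = 0.15), likewise did not pass. With the 3 groups fitted alone, Piwil1, Ldhc and Acr each passed.

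Lists of other cell types had 0 called members by limma: 26 tested genes of Sertoli cells, 11 of Leydig cells, 18 peritubular and stromal, 16 endothelial and 12 of macrophages. At an unadjusted p under 0.05 there were 1 (3.85%), 1 (9.09%), 4 (22.2%), 3 (18.8%) and 0, against the same 11.4%. Endothelial genes had a median of -0.18 (3 of 16 positive) and Sertoli cell genes one of -0.11 (5 of 26 positive). Kdr, the receptor for vascular endothelial growth factor, was at 6.59, 5.26 and 6.39 in the hybrid, 6.48, 6.43 and 6.55 in PWD and 7.32, 7.17 and 6.97 in B6. Replicate 2 alone was low, and the difference of -0.74 did not pass (adjusted p = 0.126). Vcam1, an adhesion molecule, was at -0.81 (adjusted p = 0.112). Genes with testis isoforms (23 tested), imprinted genes (23), glutathione transferases (22), class I genes (7), spermatid genes (8), control genes (6) and red blood cell genes (1) also had 0 called, with 1, 3, 4, 0, 1, 0 and 0 at an unadjusted p under 0.05. Of 17 genes known as strain differences in many tissues, Trim12a was the called one, beside 0.443% of all autosomal genes.

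Imprinted genes, read from the allele of a single parent, need not lie at a midpoint. Nnat, expressed from the paternal allele, was at 6.38, 6.59 and 6.27 in PWDxB6, 7.40, 7.58 and 7.48 in PWD and 6.13, 6.31 and 6.25 in B6. The hybrid overlapped with B6, the father's strain, and not with PWD (adjusted p = 2.33e-05), while its mid-parent difference of -0.45 fell just short (SE 0.108, adjusted p = 0.0547). B6xPWD, whose father is PWD, was at 7.43, 7.28 and 7.28, near PWD. Cdkn1c, a cell cycle inhibitor expressed from the maternal allele, was at 0.55 from the mid-parent (adjusted p = 0.057), with the hybrid at 7.62 ± 0.28 (SD, n = 3) above PWD (7.18 ± 0.06) and B6 (6.95 ± 0.28).

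The genes outside the parental range were also read in the reciprocal hybrid, whose mid-parent difference uses the same parental arrays. For the 29 genes above both parents the median was 0.61 in PWDxB6 (range 0.37 to 2.02) and 0.23 in B6xPWD (range -0.38 to 1.00), 26 of them positive. Pmaip1 was at 0.86 and 1.00, Pcbd1 at 0.91 and 0.84, and Nmnat3 at 0.72 and 0.60. Fgf2 was at 1.11 and -0.21, Tbx4 at 0.51 and -0.13, and Cyp2d10, of a cytochrome family with near-identical copies, at 0.51 and -0.38. For the 11 genes below both parents the medians were -0.54 and -0.23, with Oasl2 at -0.57 and -0.51, Usp18 at -0.46 and -0.49, Aym1 at -1.49 and 0.01 and Nup155 at -0.37 and 0.04. The 2 hybrids differed in 6 of the 29 and 3 of the 11 genes (2.55% of autosomal genes), but the members were chosen on the PWDxB6 arrays, so this is not independent of that choice. Against the F1 crosses within a subspecies the medians were 0.60 for the 29 and -0.38 for the 11, a description only, since the PWDxB6 arrays that chose the genes enter it too.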

How the data were processed

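Total RNA from pools of 4 testes at 14.5 days was measured on 23 arrays of 7 genotypes. Whether the pools were of separate litters is not stated, so p-values reflect only the spread between pools. The authors excluded 1 PWDxPWK array on quality plots, per the series' design. The deposited table holds log2 values, 1.17 to 13.96, for 25690 probe sets, as judged from their range. The steps that gave these values, normalization included, were not given in the sources used here, and probes were not checked for strain variants.

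The platform annotation named probe sets: 20777 had 1 gene symbol, 232 several and 4681 none, and those not naming a single gene were left out. By Entrez ID 20696 matched the RefSeq genes of GRCm38.p6, the source of chromosomes and promoters. The brightest probe set stood for each of 19661 genes (564 had more than 1). Genes in the lowest 25% by mean (log2 5.125 or less) were left out.

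A model of 7 genotype means was fitted in R 4.3.3 with limma 3.58.1 (16 residual degrees of freedom), with Benjamini-Hochberg adjustment over all 14745 genes. Nearer a single parent meant a parental difference of at least 1, a mid-parent call, and a hybrid mean nearer that parent and at most 0.25 beyond it. Named genes were the 12 largest differences above and below both parents, the 8 largest additive parental differences each way, up to 5 genes at each parent's level, the 4 smallest p of each list, every called list member, and Prdm9; others were named after their values were seen. Members and the 23 lists (547 members, 465 on the array, 399 autosomal and tested) were chosen with earlier results of these data known. Replicate numbers do not pair the arrays: deviations of same-numbered arrays correlated at -0.223 to 0.226. The alternatives were other dim filters, scalings, probe-set means, variance models, array weights, a replicate block, fewer arrays or genes in the fit, the linear midpoint, F1 crosses as reference, other limits for the classes and each array left out. Simulated arrays of 14745 genes held 50 changed genes of each kind. Recovered were 64% of mid-parent rises of 0.5, 92% of rises of 1 and 98% of falls of 1. Of additive genes with a gap of 2, 90% were recovered, and 5.8% of calls were false. The simulated spread was drawn separately for each gene and array, without a shift shared by the genes of an array. Raised and lowered genes had no parental difference. These rates therefore cannot stand for the real arrays, where 13 of the 63 calls remained without PWDxB6 replicate 2. Python 3.11.15 with matplotlib 3.10.9 drew the figures.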

Additional observations from a re-analysis of the deposited data

Results flagged for a closer look

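For 13 of the 63 genes off the mid-parent, PWDxB6 differed from the reciprocal hybrid B6xPWD in the limma test of that difference. Over all autosomal genes the share was 2.55%. The genes were chosen on the PWDxB6 arrays, so the test is not independent of the choice. Higher in PWDxB6 were Defb15 (1.32), Fgf2 (1.32), Map3k7cl (1.01), Cyp2d10 (0.89), Srgap1 (0.65), Spon2 (0.65), Tbx4 (0.64), Mxd1 (0.44) and Cndp2 (0.36), all in log2 units. Lower were 1700006A11Rik (-3.63), Aym1 (-1.50), Bcan (-0.75) and Nup155 (-0.41). Fgf2 had the smallest adjusted p of these (2.36e-05), with PWDxB6 arrays at 7.53, 7.75 and 7.15 and B6xPWD arrays at 6.20, 5.94 and 6.33, and Cndp2 the largest (0.0498).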

How the results depend on the processing

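The 63 genes off the mid-parent were 159 with array weights (81 higher, 78 lower), 190 with a replicate block (98 and 92, 62 shared), 130 with only the 3 groups fitted (54 and 76), 41 with autosomal genes tested alone (29 and 12) and 98 with the F1 crosses as reference (62 and 36). The split was 26 and 22 with the linear midpoint. Leaving out 1 array gave 13 to 56. The 29 above both parents were 18 with the lowest 50% of genes left out, 49 with array weights, 55 with the block and 11 if called against each parent too; 6 to 24 without 1 array. The 11 below were 42, 46 and 36 with weights, the block and the 3 groups, 3 if called against each parent and 17 by group means; 2 to 21 without 1 array. The 47 additive genes were 30 with the linear midpoint and 1 with the interval limit at 0.25 of the distance; 22 to 43 without 1 array. The 8 genes nearer a single parent were 21, 35 and 33 with weights, the block and the 3 groups; 3 to 9 without 1 array. The position of 0.201 was 0.34 with the linear midpoint, and 0.087 to 0.23 without 1 array. Among omissions of 1 array, each of these 5 counts was lowest without PWDxB6 replicate 2. With the linear midpoint Trim12a (-0.176) and Vnn1 (-0.066) turned sign. Prdm9, at the midpoint, was 0.016 with array weights and -0.097 to 0.056 without 1 array. Other alternatives stayed within 1.5 times each count, and no cause of these shifts was tested. Centring or quantile normalization moved the median gene by -0.008. Signal over background was not known, so low levels such as those of Hoxd13 are uncertain.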
